A study of Rattus norvegicus with 36 samples.

Results

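The genes described here were counted mainly in the nucleus accumbens (NAc) of rats and at far lower levels in the prefrontal cortex (PFC) of the same study. They were chosen by their measured levels in both regions. A gene was taken as a member when its mean over the 18 NAc libraries was at least 5 CPM (a gene's counts scaled to a common library total with TMM factors) and when that mean plus 0.1 CPM was at least 8 times its PFC mean plus 0.1 CPM. Of 32623 gene identifiers in the count files, 6713 were at 0 in every library, and 100 met the rule. The rule left out 7 well-known genes of the striatum that are also higher in NAc, namely Drd1, Drd2, Adora2a, Ppp1r1b, Rgs9, Penk and Pdyn, and these serve as comparators. The difference in level between NAc and PFC is therefore how the members were found and is described without a test. Spread between rats, co-variation within a region, and risk preference took no part in the choice.

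The samples came from 19 rats of the Sparague Dawley strain (the labels' spelling) that had learned a touch-screen gambling task, in which each of several lit windows carried its own odds and sizes of reward and punishment. Once a rat's choices had settled it was called risk-averse (9 rats) or risk-seeking (10 rats), and after the task NAc and PFC were dissected for sequencing of total RNA. The 36 libraries form 4 groups of 9, which are NAc and PFC of risk-averse rats and NAc and PFC of risk-seeking rats. In 17 rats both regions were sequenced, and risk-seeking rat N9 gave NAc alone and risk-seeking rat R6 gave PFC alone. All the rats had been trained in the task, no untrained group was analysed here, and the labels name no age or sex.

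The nucleus accumbens is the ventral part of the striatum and receives dopamine from the midbrain and glutamate from cortex, hippocampus and amygdala. Most of its neurons are GABA-releasing spiny projection neurons, of which one class carries the dopamine D1 receptor (Drd1) with the peptide precursor prodynorphin (Pdyn) and another carries the D2 receptor (Drd2) with the adenosine receptor encoded by Adora2a and proenkephalin (Penk). Both classes contain the phosphatase inhibitor DARPP-32 (Ppp1r1b) and the G-protein regulator Rgs9. The cortex is built mainly of glutamate-releasing pyramidal neurons with a minority of interneurons, and it has no spiny projection neurons.

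Gene totals were 18436025 to 34761269 counts per library. The share of uniquely aligned reads that fell in no annotated gene was 22.1 to 33.0% over the 36 libraries, and it was higher in risk-averse than in risk-seeking libraries on average (27.6 against 25.7% in NAc and 25.01 against 23.3% in PFC). The 7 left-out genes, which mark spiny projection neurons, were each higher in NAc than in PFC, as the tissue labels have it. Drd1 averaged 268.0 CPM in NAc (198 to 324 over 18 libraries) against 19.1 CPM in PFC (14.5 to 26.8). Adora2a averaged 336 CPM in NAc against 4.54 CPM in PFC, and Penk averaged 1041 CPM against 96.2 CPM. The files give only Ensembl gene identifiers, and none of the 32623 matched the gene table at hand, so the members are given by identifier, at most 2 in each direction. Markers of other cell types and regions, and the members' functions and sequences, were not analysed here.

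The 100 members spanned a wide range of NAc levels. Their NAc means ran from 5.04 to 1385 CPM, with a median of 20.6 CPM and quartiles at 9.25 and 55.7 CPM. In NAc 18 members reached 100 CPM or more and 28 lay under 10 CPM. CPM is not divided by transcript length, so this order is one of read counts and not of molecules. In PFC the members' means ran from 0.00643 to 102.8 CPM, with a median of 1.04 CPM. In that region 49 members averaged under 1 CPM, 9 averaged 10 CPM or more, and 86 were counted in every PFC library while 14 had at least 1 PFC library at 0. Most members were therefore low in PFC and not absent from it.

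The ratio of NAc to PFC mean, each with 0.1 CPM added, ran from 8.19 to 255.8, with a median of 15.8. The members were densest near the bound, as 50 had a ratio under 16 and 17 had a ratio of 50 or more. In each of the 100 members the lowest NAc library lay above the highest PFC library. Because NAc and PFC means chose the members, this separation is part of the choice and tests nothing.

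**Figure D1:**
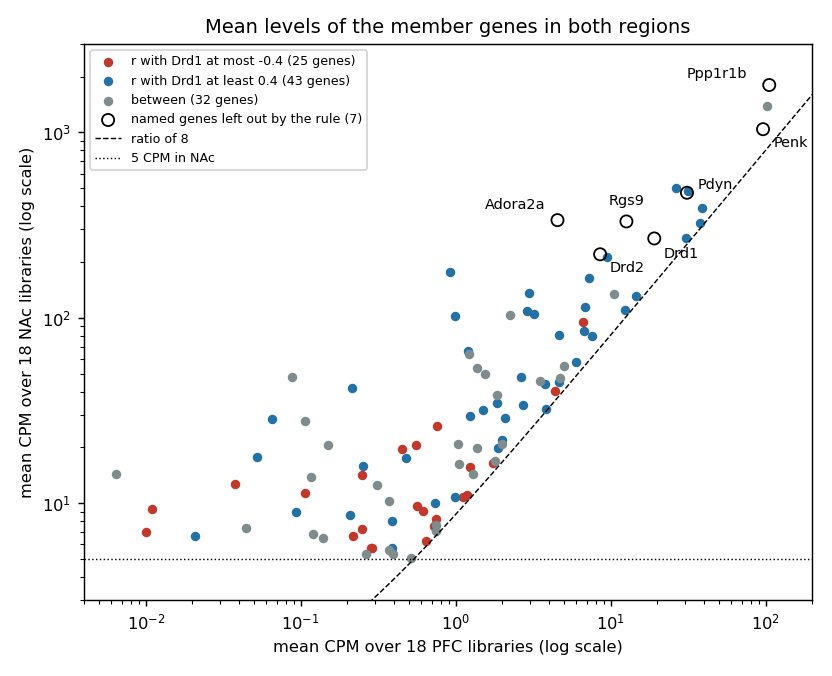
Mean CPM of each of the 100 members over 18 PFC libraries (horizontal, log scale) and 18 NAc libraries (vertical, log scale), coloured by their correlation with Drd1 in NAc. The dashed line marks the ratio of 8 and the dotted line 5 CPM, and open circles mark the 7 left-out genes, which lie among the most counted members.

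Together the members held 5912 to 7683 CPM of an NAc library (median 7018) and 420 to 477 CPM of a PFC library. Their summed level was 6921 ± 401 CPM (SD, n = 9) in NAc of risk-averse rats and 6929 ± 607 CPM (SD, n = 9) in NAc of risk-seeking rats. A few genes supplied much of this sum, as the 5 most counted members made up 44.5% of it. In PFC the sums were 459 ± 8.19 CPM (SD, n = 9) and 454 ± 18.8 CPM (SD, n = 9). In bulk tissue, fewer cells of a type and less RNA per cell cannot be told apart, here and in every result that follows.

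The member with the most counts was ENSRNOG00000019857. In NAc it ran from 1234 to 1594 CPM (median 1370) in risk-averse rats and from 1151 to 1695 CPM (median 1350) in risk-seeking rats. In PFC it ran from 89.1 to 115.0 CPM in risk-averse rats and from 85.1 to 120.0 CPM in risk-seeking rats. The preference groups overlapped almost fully in both regions, and its ratio of 13.5 was below the members' median. The next in counts, ENSRNOG00000003209, averaged 499 CPM in NAc and 26.4 CPM in PFC, and its NAc values reached from 339 CPM in rat B2 to 655 CPM in rat N9.

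The 2 members with the highest ratios were almost uncounted in PFC. ENSRNOG00000010053 had a median of 50.1 CPM in NAc of risk-averse rats (19.5 to 65.7) and 49.98 CPM in risk-seeking rats (22.2 to 65.3). Its PFC libraries ran from 0 to 0.206 CPM and held 43 counts in all, against 24668 counts in NAc, which gave the ratio of 255.8. ENSRNOG00000057031 followed with 28.5 CPM in NAc and 28 counts over the 18 PFC libraries, a ratio of 173.5. The ratio of the third, ENSRNOG00000017712, was all but the same at 172.3, in a gene of 176 CPM in NAc with 434 counts in PFC. The first and second ratios depend on the 0.1 CPM added to both means, since the PFC means (0.0875 and 0.0649 CPM) were smaller than it.

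At the edges of the rule, ENSRNOG00000005286 (ratio 8.19) and ENSRNOG00000009577 (ratio 8.39) were just inside the ratio bound, and ENSRNOG00000060984 (ratio 7.97) and ENSRNOG00000025059 (ratio 7.89) just outside it. By level, ENSRNOG00000009577 (5.04 CPM in NAc) and ENSRNOG00000001092 (5.30 CPM) were just inside, and ENSRNOG00000023712 (4.97 CPM) and ENSRNOG00000003654 (4.92 CPM) just outside. With a lower NAc bound of 1 CPM the rule would have taken 157 genes, so the number 100 belongs to these bounds.

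Between rats the members varied more than most genes did. The coefficient of variation (CV) within preference group over the 18 NAc libraries had a median of 18.2% in the members, with quartiles at 15.2 and 29.1%, against a median of 9.60% in the 11378 other genes of at least 5 CPM in NAc. Of the 100 members, 38 lay above 21.9%, the 95th percentile of all genes of that level. edgeR's biological coefficient of variation, which takes counting error out, had a median of 17.1% in the members against 9.56% in the other genes. The 7 left-out striatal genes had CVs of 9.36 to 15.7%. Their median of 14.3% was also above the median of other genes but below that of the members.

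**Figure D2:**
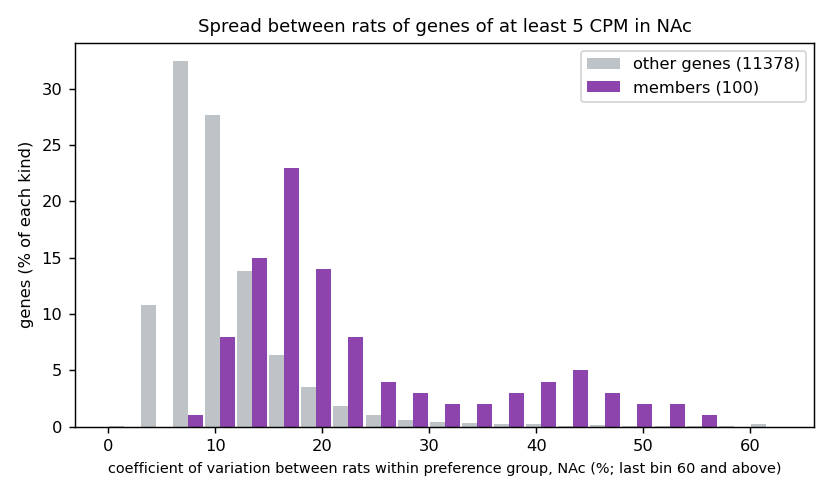
Share of genes (vertical, %) by coefficient of variation between rats within preference group in NAc (horizontal, %), for the 100 members and the 11378 other genes of at least 5 CPM. The members' median was 18.2% against 9.60%, and 22 of the 38 members above 21.9% belong to a set of 25 that ran against Drd1.

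The members did not all vary alike. The lowest CVs were 8.04% in ENSRNOG00000022162, whose 18 NAc libraries ran from 67.4 to 90.9 CPM, and 9.58% in ENSRNOG00000003956, whose NAc libraries ran from 43.5 to 66.1 CPM. The highest was 55.4% in ENSRNOG00000005659, which ran from 2.79 to 8.06 CPM (median 5.31) in risk-averse NAc and from 2.93 to 15.9 CPM (median 4.40) in risk-seeking NAc. Its top value came from rat BR5, whose PFC library was also the highest at 1.02 CPM against a PFC median of 0.234 CPM in its group. ENSRNOG00000028064 came next at 53.4%, with 2.70 CPM in rat N7, 3.08 CPM in rat R2 and 18.4 CPM in rat R1.

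The spread of the members was of like size in both preference groups, with a median CV of 18.6% in risk-averse and 16.97% in risk-seeking NAc. Of the 100 members, 48 had the larger CV in risk-averse rats. Over all genes of at least 5 CPM in NAc the same was true of 70.6%, with medians of 10.4% in risk-averse and 8.38% in risk-seeking rats. Many members rose and fell together, as described below, so the count of 48 does not rest on 100 independent genes. In PFC, the 51 members of at least 1 CPM had a median CV of 21.6% against 10.6% in 13727 other genes of that level. The part of counting error in the PFC values was not tested.

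Which members rose and fell together from rat to rat was described with Drd1 as the reference, using Pearson's r of log2(CPM + 0.1) over the 18 NAc libraries with preference group means removed. Each gene was tested by 100000 permutations of libraries within preference group, and p-values were adjusted by Benjamini-Hochberg over 11477 genes of at least 5 CPM. With a positive r, 30 members passed, where 21.7% of all genes did, and 11 passed with a negative r, where 9.38% of all genes did. The members' shares were thus 30 and 11 in 100, near or somewhat above those of all genes. With CPM scaled by library size alone the balance of all genes turned (9.94% positive and 14.2% negative), while 22 members passed with a positive and 11 with a negative r, so that the members' negative share lay below that of all genes.

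The members most like Drd1 were ENSRNOG00000010440 and ENSRNOG00000057729. ENSRNOG00000010440 ran from 291 to 434 CPM (median 401) in risk-averse NAc and from 332 to 454 CPM (median 403) in risk-seeking NAc, lowest in rats B2 and B5 and highest in rats N6 and N9. Its r with Drd1 was 0.958 (permutation p = 1e-05, the smallest these permutations can give) and Spearman's rho 0.936 (permutation p = 1e-05), with an adjusted p of 0.000598. Without rats B5 and B2, which lay farthest from the median of Drd1, r was 0.945. ENSRNOG00000057729 had an r of 0.925 (permutation p = 1e-05) and a rho of 0.860 (permutation p = 3e-05), and an r of 0.875 without those rats.

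The members that ran most strongly against Drd1 were ENSRNOG00000032085 and ENSRNOG00000056996. ENSRNOG00000032085 ran from 2.70 to 13.4 CPM (median 8.29) in risk-averse NAc and from 3.01 to 14.7 CPM (median 7.52) in risk-seeking NAc, lowest in rats N7 and R2 and highest in rats B3 and R1. Its r with Drd1 was -0.681 (permutation p = 0.00261) and its rho -0.651 (permutation p = 0.00527), with an adjusted p of 0.0149 and an r of -0.609 without rats B5 and B2. ENSRNOG00000056996 ran from 5.31 CPM in rat N7 to 27.8 CPM in rat B2, with an r of -0.673 (permutation p = 0.00340), a rho of -0.678 (permutation p = 0.00389), an adjusted p of 0.0189 and an r of -0.577 without those rats. Both are low-count genes whose range over the rats was wide relative to their level, while Drd1 itself ran only from 198 to 324 CPM.

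Correlation with Drd2, measured in the same way, passed less often, both in members and in all genes. Only 2 members passed, both with a positive r, where 0.0871% of the 11477 genes did. By r alone, with bounds set after the values were seen, 36 members had an r of at least 0.4 with Drd2, where 16.7% of all genes did. An r of at most -0.4 was found in 5 members and 7.43% of all genes. With Drd1, 43 members and 35.7% of all genes had an r of at least 0.4. ENSRNOG00000021098 had an r of 0.857 (permutation p = 2e-05), a rho of 0.812 (permutation p = 0.00021) and an adjusted p of 0.0459, with an r of 0.774 without rats B2 and B5. The other member that passed, ENSRNOG00000025037, named here after its values were seen, had an r of 0.814 (permutation p = 2e-05), a rho of 0.763 (permutation p = 0.00054), an adjusted p of 0.0459 and an r of 0.748 without those rats. ENSRNOG00000026679 had a higher r of 0.863 (permutation p = 0.00022) and a rho of 0.730 (permutation p = 0.0021) but an adjusted p of 0.0710. It was one of the most counted members, with 327 to 630 CPM in risk-averse and 376 to 590 CPM in risk-seeking NAc. On the negative side ENSRNOG00000008644 had an r of -0.685 (permutation p = 0.00808), but its rho was -0.445 (permutation p = 0.0736) and r was -0.295 without rats B2 and B5, so that relation rested on those rats and its adjusted p was 0.226. Of the left-out genes, Drd1 and Drd2 correlated at 0.578. Adora2a was at 0.888 with Drd2 and 0.780 with Drd1, and Ppp1r1b at 0.847 with Drd2 and 0.857 with Drd1. Penk, a gene of the D2 class, was at 0.381 with Drd2 and 0.793 with Drd1. Pdyn was at 0.501 with Drd2 and 0.806 with Drd1, and Rgs9 at 0.640 with Drd2 and 0.281 with Drd1. The r with Drd1 or Drd2 thus did not sort all of these genes by spiny neuron class.

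To describe the pattern, the members were divided after their values were seen into 25 with an r of at most -0.4 with Drd1, 43 with an r of at least 0.4 and 32 between. Over all genes 18.8% fell in the first range and 35.7% in the second. Genes chosen for likeness to the same gene will resemble each other, so the correlations inside these sets are given as description only.

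The 25 members that ran against Drd1 were mostly of low level and high spread. Their median NAc level was 9.66 CPM and their median CV 42.6%, and 22 of them lay above the 95th percentile of CV of all genes. The 2127 other genes with an r of at most -0.4 with Drd1 had a median CV of 12.7%. Of the 25, 20 were picked out by a median r of at least 0.8 with the rest of the set, and these had pairwise r in NAc of 0.814 to 0.977 (median 0.930), CVs of 35.3 to 53.4% and NAc means of 5.47 to 40.5 CPM. Their r with Drd1 was -0.681 to -0.426. The other 5 had a median r of 0.173 to 0.582 with the rest of the set, and no member outside the 25 reached a median r of 0.8 with the 20. Whether genes outside the members belong to this group was not tested. ENSRNOG00000060984, just outside the ratio bound, was lowest in rats N7 and R2 and highest in rats BR9 and R1 of their preference groups.

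**Figure D3:**
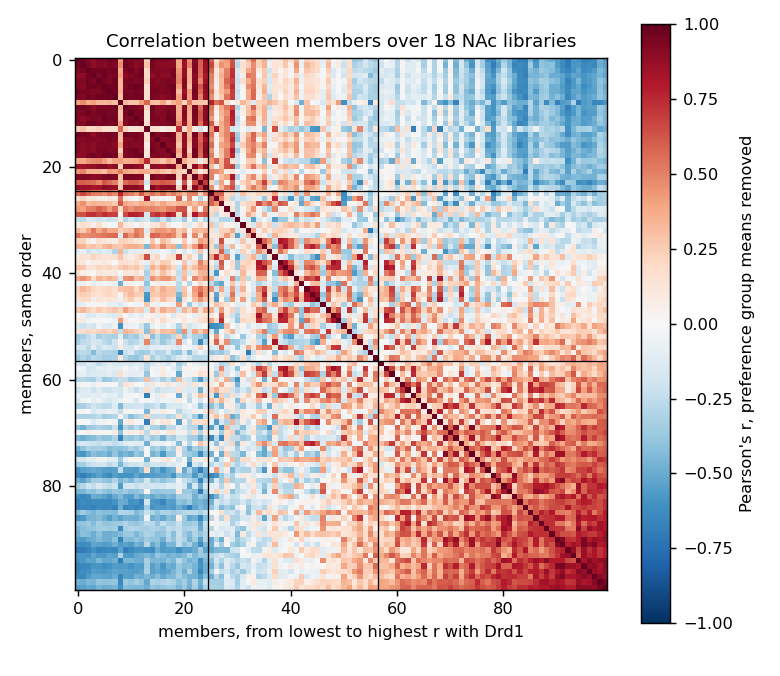
Pearson's r between each pair of the 100 members over 18 NAc libraries, with preference group means removed, members ordered from lowest to highest r with Drd1 (colour scale from -1 to 1). Lines divide the sets of 25, 32 and 43 members. The square at the upper left holds the 25, of which 20 had pairwise r of 0.814 to 0.977, with the other 5 lying among them.

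Summed, the 20 genes ran from 96.6 CPM in the NAc of rat N7 to 468 CPM in that of rat R1. For all 25 the sum ran from 209 to 535 CPM (median 383) in risk-averse and from 253 to 595 CPM (median 370) in risk-seeking NAc. Low rats (N7, N9, R2) and high rats (R1, BR9, B2) occurred in both preference groups, which overlapped over nearly their whole range. The share of reads outside genes was 26.4% in N7 and 26.0% in R1, and the highest share of any NAc library, 33.0% in rat B2, went with a sum of 532 CPM. The part of read composition in this pattern was not tested.

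The 43 members that went with Drd1 had a median NAc level of 45.3 CPM and a median CV of 15.7%. Their pairwise r had a median of 0.519, lower than that of the first set, and their r with Drd2 a median of 0.620. Their sum ran from 3117 CPM in rat B2 to 4736 CPM in rat N7 among risk-averse rats and from 3414 CPM in rat B5 to 4987 CPM in rat N9 among risk-seeking rats. Over all 4950 pairs of members the median r was 0.0894.

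**Figure D4:**
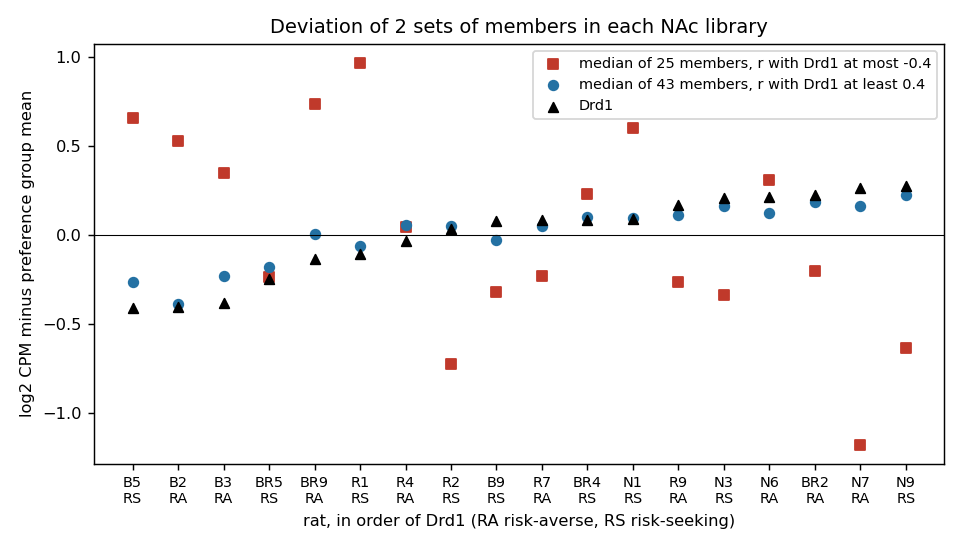
Median deviation from the preference group mean (vertical, log2 CPM) of the 25 members with r of at most -0.4 and the 43 with r of at least 0.4 with Drd1, and of Drd1 itself, in each of 18 NAc libraries ordered by Drd1. The first set ran from -1.18 in rat N7 to 0.966 in rat R1, a wider range than that of the second set.

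The members inside a set resembled each other less in PFC. The sets were chosen by r with Drd1 in these same NAc libraries, so a lower r in PFC was to be found in any case. The values are given as description only. Of the 25, 6 averaged at least 1 CPM in PFC, and their pairwise r had a median of 0.907 in NAc and 0.105 in PFC. Of the 43, 29 did so, with medians of 0.594 in NAc and 0.0241 in PFC. PFC counts of these genes were low, and the share of the drop that counting error makes up was not tested.

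Whether a rat with a high level in NAc also had one in PFC could be asked of the 51 members of at least 1 CPM in PFC in the 17 rats with both regions. None of the 51 passed at an adjusted p of 0.05 by permutation of rats within preference group, where 28.8% of 13399 genes did, and 3 members had an unadjusted p under 0.05, where 45.01% of all genes did. The median r was 0.150 in the members, positive in 35 of 51, and 0.471 in the other genes. Among the other genes of 1 to 10 CPM in PFC, a level at which 42 of the 51 members lay, the median was 0.336 and 17.5% passed. The left-out genes had a median of 0.506 and 2 of the 7 passed.

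The 2 members with the highest r between regions were ENSRNOG00000007374 and ENSRNOG00000007647. For ENSRNOG00000007374 r was 0.579 (permutation p = 0.0487) and rho 0.490 (permutation p = 0.0904), with an adjusted p of 0.109 and an r of 0.702 without rats B5 and R7. For ENSRNOG00000007647 r was 0.546 (permutation p = 0.0297) and rho 0.544 (permutation p = 0.0335), with an adjusted p of 0.0783 and an r of 0.480 without rats B2 and B5. The lowest r was -0.462 in ENSRNOG00000053787 (permutation p = 0.0681, adjusted p 0.136), which was -0.275 without rats N3 and B2, followed by -0.316 in ENSRNOG00000012311 (permutation p = 0.223, adjusted p 0.323).

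The study's own question, how risk-averse and risk-seeking rats differ in gene expression, was put to the members in each region with edgeR's quasi-likelihood test, fitted and adjusted by Benjamini-Hochberg over all genes tested. Fold changes are given as risk-seeking minus risk-averse on the log2 scale. In NAc, where the members are mainly counted, all 100 were tested and none passed at an adjusted p of 0.05, and the background was likewise 0% of 15418 genes. An unadjusted p under 0.05 was reached by 6 members, 3 in each direction, against 17.8% of all genes. DESeq2 passed 1 member, where it passed 4.19% of genes, and limma-voom passed 0.

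The members' median log2 fold change in NAc was 0.0176 against -0.00443 over all genes tested, with 54 of 100 above 0. The sizes of their differences were like those of other genes (median absolute log2 fold change 0.0865 against 0.0862), and their standard errors were larger (median 0.116 against 0.0755). None of the 25 members that ran against Drd1 was among the 6, and their median log2 fold change was 0.0674. The left-out genes did not pass in NAc either, with Drd1 at 0.0131 ± 0.0965 (SE) and Drd2 at -0.0322 ± 0.0851 (SE).

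ENSRNOG00000011320 had the smallest p in NAc. It ran from 9.78 to 14.2 CPM (median 10.7) in risk-averse rats and from 12.5 to 15.8 CPM (median 12.7) in risk-seeking rats. All 9 risk-seeking rats lay above the risk-averse median and 3 lay above every risk-averse rat, so the groups overlapped in part. Its log2 fold change was 0.27 ± 0.0801 (SE), with an adjusted p of 0.107 by edgeR and of 0.0367 by DESeq2.

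ENSRNOG00000049495 ran from 66.6 to 119 CPM (median 94.7) in risk-averse NAc and from 103 to 122 CPM (median 114) in risk-seeking NAc. Again all 9 risk-seeking rats lay above the risk-averse median, 1 of them above every risk-averse rat, and the risk-averse group was the wider one. The log2 fold change was 0.25 ± 0.0833 (SE) with an adjusted p of 0.135 by edgeR, and it was 0.30 with an adjusted p of 0.0268 without risk-averse rat R9. Leaving out that library also raised the calls over all genes from 0 to 6.1% of 15486.

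In the other direction ENSRNOG00000012512 ran from 57.9 to 98.0 CPM (median 66.4) in risk-averse NAc and from 52.3 to 70.4 CPM (median 59.1) in risk-seeking NAc. Its log2 fold change of -0.23 ± 0.0868 (SE) had an adjusted p of 0.182 by edgeR and was -0.15 without rat B2, which held the highest value. ENSRNOG00000013036 ran from 38.0 to 77.3 CPM (median 47.3) in risk-averse NAc and from 32.4 to 59.4 CPM (median 39.2) in risk-seeking NAc, with 7 of 9 risk-seeking rats below the risk-averse median. Its log2 fold change was -0.39 ± 0.148 (SE) with an adjusted p of 0.184 by edgeR.

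Most of these NAc differences were smaller with read composition in the fit. ENSRNOG00000013036 was at -0.17 with the share of reads outside genes as a covariate, at -0.15 with the share of multiply aligned reads and at -0.10 without the 4 rats with the highest share outside genes. With the share of ambiguous reads ENSRNOG00000049495 was at 0.062 and ENSRNOG00000012512 at -0.064. ENSRNOG00000011320 stayed between 0.23 and 0.31 in these 4 fits, and no member passed in any of them.

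In PFC 31 of the 100 members, all with a PFC mean of at most 0.395 CPM, did not pass the filter on low counts. Of the 69 tested, 6 passed, or 8.70%, against 23.3% of 15128 genes. One of them was higher in risk-seeking rats, where 11.8% of all genes were, and 5 were lower, where 11.4% of all genes were. The members' median log2 fold change was -0.0448 against 0.00957 over all genes tested, and their standard errors were larger (median 0.156 against 0.0748). An unadjusted p under 0.05 was reached by 15 of the 69, against 36.9% of all genes. None of the 6 passed once the share of reads outside genes, the share of ambiguous reads or the share of reads aligned to more than 1 place was put in the fit, and none passed without the 4 rats with the highest share outside genes. The calls over all genes fell in the same fits, from 23.3% to 2.21, 0 and 0.00661% with these covariates and to 0.00649% without the 4 rats. Risk-averse and risk-seeking PFC libraries had different means of each of these shares (ambiguous 0.655 against 0.719%, multiply aligned 12.9 against 13.5%), and their part in the result cannot be told apart from that of preference.

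ENSRNOG00000049495 was the member that passed as higher in risk-seeking PFC. It ran from 0.605 to 1.16 CPM (median 0.753) in risk-averse and from 0.733 to 1.68 CPM (median 1.16) in risk-seeking rats, 8 of 9 of them above the risk-averse median and 4 above every risk-averse rat. The log2 fold change was 0.51 ± 0.166 (SE) with an adjusted p of 0.0298 by edgeR. It rested on 473 counts over 18 libraries, and leaving out any of 5 rats (B3, B9, BR9, R1 or R4) took it past 0.05, with 0.43 and an adjusted p of 0.0655 without risk-seeking rat B9 as the smallest value.

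The members with the smallest p among those lower in risk-seeking PFC were ENSRNOG00000013036 and ENSRNOG00000011310. ENSRNOG00000013036 ran from 4.01 to 7.88 CPM (median 6.17) in risk-averse and from 2.79 to 5.98 CPM (median 3.42) in risk-seeking PFC. All 9 risk-seeking rats lay below the risk-averse median, and 7 lay below every risk-averse rat. The log2 fold change was -0.65 ± 0.154 (SE) with an adjusted p of 0.00769 by edgeR, and in NAc the same gene was at -0.39.

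ENSRNOG00000011310 ran from 31.4 to 52.5 CPM (median 43.2) in risk-averse and from 27.0 to 41.7 CPM (median 34.5) in risk-seeking PFC, and 9 of 9 risk-seeking rats lay below the risk-averse median. The log2 fold change was -0.32 ± 0.0896 (SE) with an adjusted p of 0.0151 by edgeR. In NAc, where it averaged 323 CPM, it was at -0.21 ± 0.104 (SE) with an adjusted p of 0.300.

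The other 3 members that passed as lower in PFC are named here after their values were seen. ENSRNOG00000017959 ran from 0.971 to 1.71 CPM (median 1.404) in risk-averse and from 0.470 to 1.43 CPM (median 0.902) in risk-seeking PFC, where 6 of 9 rats lay below every risk-averse rat. Its log2 fold change was -0.61 ± 0.172 (SE) with an adjusted p of 0.0160 by edgeR, and in NAc it was at 0.17 ± 0.276 (SE). The difference between these had an unadjusted p of 0.0406 and an adjusted p of 0.981 by edgeR. ENSRNOG00000032085, the member most opposed to Drd1 in NAc, was at -0.72 ± 0.226 (SE, adjusted p 0.0256 by edgeR) with 347 counts in all of PFC, and it did not pass without rat R1 (-0.67, adjusted p 0.0514) or rat R7 (-0.61, adjusted p 0.0623). ENSRNOG00000052051 was at -0.37 ± 0.122 (SE, adjusted p 0.0337 by edgeR) and did not pass without any of 6 rats (B9, BR4, BR5, BR9, R1 or R6), with -0.27 without BR9 as the smallest value. Of the 7 left-out genes only Penk passed in PFC, against 23.3% of all genes. It was higher in risk-seeking rats by 0.32 ± 0.0771 (SE, adjusted p 0.00832 by edgeR). Penk's difference with the read shares in the fit is not given here.

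**Figure D5:**
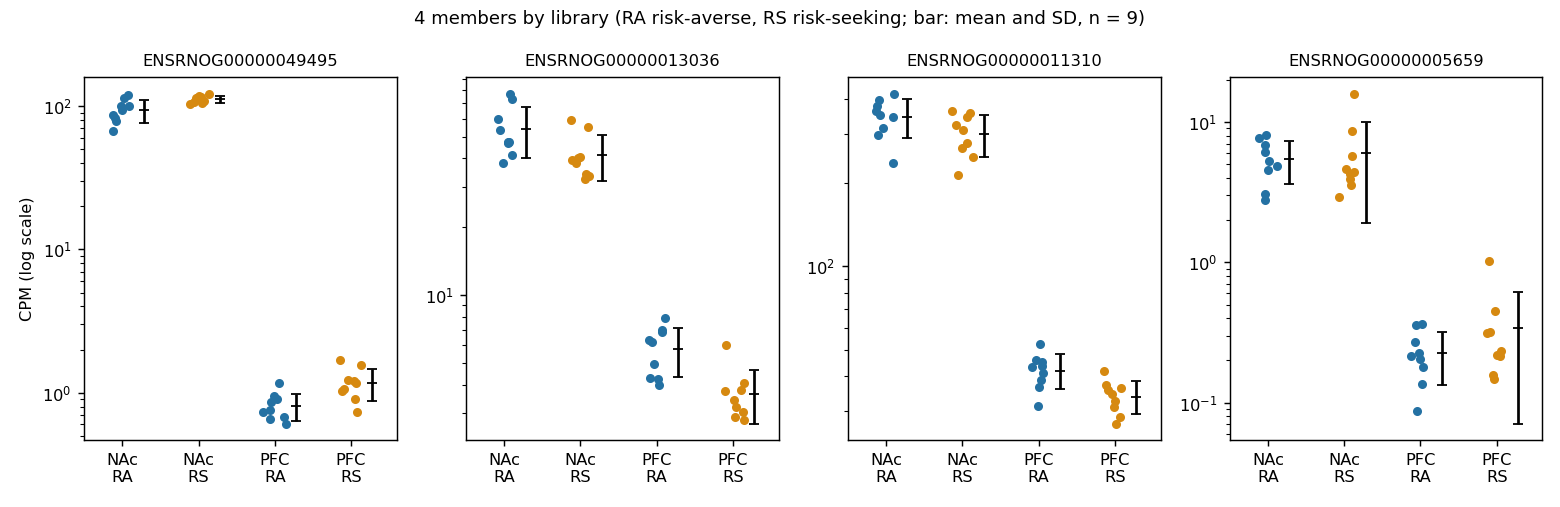
CPM (log scale, each panel with its own range) of 4 members in each library of the 4 groups, with mean and SD (n = 9). ENSRNOG00000049495 ran from 0.605 to 1.16 CPM in risk-averse and from 0.733 to 1.68 CPM in risk-seeking PFC, ENSRNOG00000013036 and ENSRNOG00000011310 were lower in risk-seeking PFC, and ENSRNOG00000005659 was the member of highest spread in NAc.

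A difference between regions in the effect of preference was tested directly over all 36 libraries, as the NAc difference minus the PFC difference. The fit had no term for the animal, so the 2 libraries of a rat were treated as independent. All 100 members were tested and none passed by edgeR, where 0% of 15936 genes did, and none passed by DESeq2. Only 69 of the members had passed the filter on low counts in PFC alone. The rest entered this fit through their NAc counts, and their PFC difference rests on very few counts, so the test says little about them. An unadjusted p under 0.05 was reached by 6 members, against 2.43% of all genes, and the lowest adjusted p of any member was 0.981. With the animal as a block none passed either. A member that passed in PFC and not in NAc was therefore not shown to respond differently in the 2 regions.

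The largest of these differences by p were ENSRNOG00000052051 at 0.44 ± 0.137 (SE) and ENSRNOG00000017712 at 1.20 ± 0.481 (SE) in the positive direction. ENSRNOG00000017712 ran from 0.388 to 4.80 CPM in risk-averse PFC, where rat R9 stood far above the group median of 0.538 CPM, and the difference was 0.54 without that library. In NAc this gene ran from 85.0 to 218 CPM in risk-averse and from 157 to 239 CPM in risk-seeking rats. In the negative direction ENSRNOG00000012311 was at -0.72 ± 0.289 (SE) and ENSRNOG00000005286 at -0.35 ± 0.200 (SE). ENSRNOG00000012311 ran from 0.151 to 1.75 CPM (median 0.811) in risk-averse and from 0.702 to 2.12 CPM (median 1.45) in risk-seeking PFC, with 8 of 9 risk-seeking rats above the risk-averse median, while in NAc its group medians were 69.5 and 66.5 CPM.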

How the data were processed

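Total RNA of dissected NAc and PFC was made into libraries with a TruSeq kit and sequenced as paired reads, per the labels' protocols. The submitters' processing notes list HTSeq 0.9.0, STAR 2.5.3a and edgeR beside the trimming tool Trimmomatic, and the builds rn6 and Rnor_6.0. The deposited files hold raw read counts per Ensembl gene for each library, and 5 summary categories per library were kept out of totals and tests. No source used here gives the annotation release or the use of strand, and overlapping or antisense genes and close paralogs may share reads.

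CPM were computed with TMM factors over all 36 libraries. Preference was tested with edgeR 4.0.16 (R 4.3.3; robust glmQLFit and glmQLFTest, filterByExpr, threshold 0.05), and DESeq2 1.42.0 and limma 3.58.1 served as alternatives. The steps were checked on simulated counts. Replicates within a group differed beyond sampling noise in all pairs, and each library is 1 rat. The main interaction fit had no term for the animal. In its alternative with the animal as a block, the titles paired the regions of 17 rats. The deviations of the 2 libraries of a rat correlated at 0.0400 to 0.650. In 15 of the 17 rats the NAc library correlated best with that rat's own PFC library. Named genes are, by a set rule, at most 2 identifiers in each direction by level, ratio, spread, likeness to Drd1 or Drd2, or p. The members and lists were chosen with earlier results of these data known, and the permutation tests of correlation were added after the files were seen. Gene lists and marker lists needed symbols and were not analysed here. Fold changes of counts are log2 values fitted by edgeR.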

Additional observations from a re-analysis of the deposited data

Results flagged for a closer look

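In groups of 9 libraries, a library was looked at again when its gap to the nearest other library took up more of the group's range than Dixon's critical value allows. Of 131 groups examined in 33 named genes, 11 held such a library. A rate of 1 in 20 would give 6.55, but that rate is for groups not chosen by their values. Many of these genes were named for extreme spread, r or p in these data, so no excess is read from this count. ENSRNOG00000019857, the member with the most counts, stood at 1695 CPM in the NAc of risk-seeking rat BR4, with the next library at 1426 CPM. Rat BR5 stood apart in ENSRNOG00000005659 in both regions, at 15.9 CPM in NAc (next 8.61) and 1.02 CPM in PFC (next 0.448), and it was the low library of ENSRNOG00000003956 in NAc at 43.5 CPM (next 53.5). In risk-averse NAc, rat B2 was high in ENSRNOG00000008644 at 8.82 CPM (next 6.27) and in ENSRNOG00000012512 at 98.0 CPM (next 76.2). In risk-seeking PFC, ENSRNOG00000057031 was at 0.244 CPM in rat B5 (next 0.0400), ENSRNOG00000022162 was at 5.41 CPM in rat R2 (next 6.998), and ENSRNOG00000013036 was at 5.98 CPM in rat BR4 (next 4.08). In risk-averse PFC, ENSRNOG00000052051 was at 3.55 CPM in rat BR9 (next 2.56) and ENSRNOG00000017712 was at 4.80 CPM in rat R9 (next 2.12).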

How the results depend on the processing

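The number of members was 157 with an NAc bound of 1 CPM and 99 to 104 when each library was left out in turn. In NAc, the count of members passing was 1 with DESeq2 (ENSRNOG00000011320, adjusted p 0.0367) and 0 to 1 over the fits without each library, the 1 without risk-averse rat R9 (ENSRNOG00000049495, adjusted p 0.0268), in a fit that called 6.1% of all genes. In PFC, 11 members passed at an adjusted p under 0.10, where 32.4% of all genes did, and 0 passed with the share outside genes, the ambiguous share or the multiply aligned share as a covariate, or without the 4 rats of highest share outside genes, where 2.21, 0, 0.00661 and 0.00649% of all genes did. Over the fits without each PFC library 3 to 8 passed, against 14.9 to 27.8% of all genes, with 3 without risk-seeking rat R1, where 16.7% of all genes passed. With all 36 libraries in 1 fit, all 100 members were tested for the PFC difference and 6 passed, where 23.3% of 15936 genes did. These were not the same 6, since ENSRNOG00000017959 (adjusted p 0.129) and ENSRNOG00000032085 (adjusted p 0.160) did not pass. Members too little counted in PFC alone entered that fit through their NAc counts. The log2 fold change of ENSRNOG00000013036 in PFC was -0.45 with the share outside genes in the fit (adjusted p 0.117) and that of ENSRNOG00000011310 was -0.15 with the ambiguous share (adjusted p 0.771). The cause was not tested. With the animal as a replicate block, 0 members passed in the interaction, and ENSRNOG00000052051 was at 0.40 with an adjusted p of 0.337. Over the fits without each library, the interaction stayed at 0 members, the members' median CV in NAc was 16.9 to 18.7%, the set opposed to Drd1 held 24 to 27 members and the set with Drd1 held 40 to 45. Each preference difference of a named member kept its sign in the alternatives run, while the balance of positive and negative correlations with Drd1 over all genes turned with library-size scaling. In the fits of PFC libraries alone, 31 members were too little counted to test in the main setting.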
